A study of Mus musculus with 4 samples.

Results

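The p53 target genes described here are Cdkn1a, Ccng1, Mdm2, Phlda3, Sesn2, Pmaip1, Bbc3, Bax, Perp and Trp53inp1, a set of 10 textbook targets chosen by name, each read by every probe set that the array's annotation gives to that symbol alone. Of these 10 genes, 9 had such a probe set, 16 probe sets in all, among 18193 genes on the array. Bax is not analysed here. The arrays hold RNA from whole mouse embryos labelled E9.0, 2 homozygous for the loss of Nr6a1, an orphan nuclear receptor also called GCNF (Nr6a1-/-, labelled Gcnf-/-) and 2 wildtype embryos (labelled wt), with 1 embryo on each array. The mutation is germline and so present in every cell, and genotypes were read from yolk sac DNA. The methods give a collection window that runs on past the labelled stage, and neither litter nor somite number is stated. The paper describes embryos without Nr6a1 as slowed in development and failing to turn before they die. Such delay and genotype cannot be told apart here.

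The transcription factor p53 is kept scarce in unstressed cells by the ubiquitin ligase Mdm2 and accumulates after DNA damage, nucleolar stress or a shortage of growth signals. It then switches on genes that halt the cell cycle, genes that kill the cell through the Bcl2 family at the mitochondrion, and genes such as Mdm2 that end the response. In the mouse embryo, loss of Mdm2 is lethal unless p53 is lost as well, and p53 activation lies behind craniofacial and neural tube defects in several mutants of other genes. Most of these targets also answer to other factors.

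Both Cdkn1a probe sets rose in Nr6a1-/- embryos. Among the 7 genes with a RefSeq start window at hand, Cdkn1a carries the most matches to the p53 motif. The DNA element that p53 reads is a pair of copies of a half-site of 10 bases, whose consensus is its own reverse complement, so that a search of one strand covers both. RefSeq windows of 300 bases (250 before to 50 after an annotated start, assembly GRCm38.p6) were at hand for 7 of the 10 genes, 10 windows in all. No window was at hand for Pmaip1, Perp and Trp53inp1, so their motif content is not known here. An exact half-site was found in 4 of these windows, those of Cdkn1a, Ccng1, Mdm2 and Bax, and 8.36% of the 32851 windows of all genes held one. The Cdkn1a window with half-sites, chr17:29090729-29091028 on the plus strand, belongs to an upstream start, 2790 bases before the other annotated Cdkn1a start, whose window held none. Its half-sites begin 73 and 51 bases before the start, with a spacer of 12 bases. Windows with 2 exact half-sites at a spacer of 13 bases or fewer made up 0.0731% of all windows. The half-site at 51 bases is also followed directly by a second copy, a full site of 20 bases with 1 mismatch, and full sites with 1 mismatch at most occurred in 0.067% of windows. The Ccng1 window (chr11:40755422-40755521 is shown, minus strand) held a full site with 1 mismatch too, and the Mdm2 window (chr10:117710895-117710984, minus strand) a single half-site. The p53-responsive Mdm2 promoter known from the literature lies further on, in the first intron. The windows of Phlda3, Sesn2 and Bbc3 held no exact half-site. These sequences are shown because they set a gene that rose beside others with a match that did not pass the test. Capitals mark half-sites and full sites. A match is a description of the sequence, and binding was not measured.
Cdkn1a: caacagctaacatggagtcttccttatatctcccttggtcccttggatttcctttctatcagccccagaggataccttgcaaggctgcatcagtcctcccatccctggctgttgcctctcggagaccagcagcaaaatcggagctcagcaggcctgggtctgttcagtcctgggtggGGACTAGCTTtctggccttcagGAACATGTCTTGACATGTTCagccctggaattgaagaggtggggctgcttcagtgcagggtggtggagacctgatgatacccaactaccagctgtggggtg
Ccng1: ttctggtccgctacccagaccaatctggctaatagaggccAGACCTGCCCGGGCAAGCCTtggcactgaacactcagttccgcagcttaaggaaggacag
Mdm2: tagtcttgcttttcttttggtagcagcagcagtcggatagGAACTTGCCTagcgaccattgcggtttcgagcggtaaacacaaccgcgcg

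Signals are log2 values from RMA (robust multi-array averaging), and every fold change is mutant minus wildtype on that scale. Genes are taken at their brightest probe set, and the other probe sets of the members are given beside it. For most other genes with several probe sets the dimmer ones are not given. Embryos of a genotype resembled each other (Pearson r across probe sets of 0.9973 or more) more than embryos of different genotype did (0.9952 or less). Wildtype replicate 1 was the only female, by its Xist signal, and its poly-A spike controls averaged 8.96, against 9.59 to 9.66 on the other arrays. The probe sets for 18S ribosomal RNA averaged 1.06 more in mutants than in wildtype, and the 3' minus 5' signal of Gapdh differed by -0.00 and that of beta-actin by -0.08. The 5 Nr6a1 probe sets lay 0.05 to 0.56 above wildtype in mutants, and where they lie relative to the deletion is not known here, so they do not check the labels.

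Of the 9 measured genes, 3 rose in Nr6a1-/- embryos at an adjusted p of 0.05 or lower (limma, Benjamini-Hochberg over 45037 probe sets): Cdkn1a, Phlda3 and Trp53inp1, which is 33.3% of the members. Over all genes 1.02% rose by the same rule. None fell (0 of 9), and 0.374% of all genes did. Pmaip1, at 2.10-fold, had the largest difference and missed the threshold at an adjusted p of 0.0507. The study's call also asks for a change of at least 2-fold, which 0.423% of genes met upwards and 0 of 9 members did in limma, with 5 members higher and 1 lower at an unadjusted p under 0.05. Of all genes 11.9% were higher and 11.9% lower at that unadjusted p, so that the 1 lower member of 9 is near the background. Both mutants lay above both wildtype embryos for 6 of 9 members (66.7%, against 26.2% of all genes) and below them for 2 of 9 (22.2%, against 30.4%). The median change was 0.36 over the 9 genes and -0.01 over all genes. The members were proposed with results of these arrays known, so the counts describe them and do not test the set. Fewer cells expressing a gene and less RNA per cell cannot be told apart in whole embryos.

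**Figure D1:**
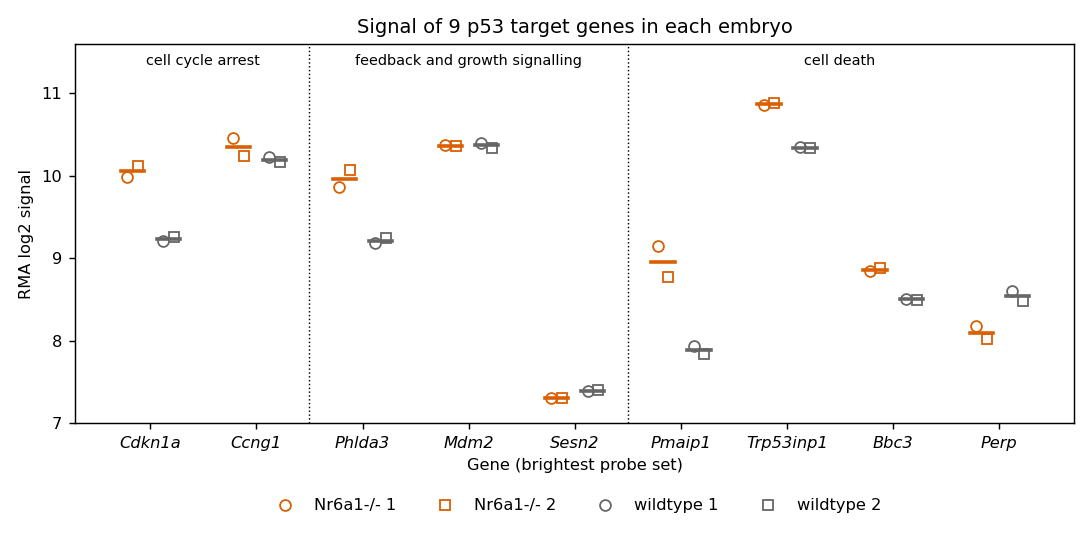
RMA log2 signal (vertical axis) of each embryo for the 9 measured p53 target genes at their brightest probe set (horizontal axis), with bars at the genotype means; circles and squares are replicates 1 and 2, orange is Nr6a1-/- and grey is wildtype. Cdkn1a, Phlda3, Pmaip1, Trp53inp1 and Bbc3 show clear gaps with mutants above, and Perp a gap with mutants below.

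Of the cell cycle arrest targets, Cdkn1a rose and Ccng1 did not pass. Cdkn1a encodes p21, which binds and inhibits cyclin-dependent kinases. Its brightest probe set stood at 9.99 and 10.12 in mutants, against 9.21 and 9.25 in wildtype. The mutants were both above the wildtype embryos, with a gap of 0.73 between the nearest. The log2 fold change was 0.82 ± 0.08 (moderated SE, n = 2 per genotype, 1.77-fold, limma adjusted p = 0.0335), with a 95% interval of 0.62 to 1.02. The second Cdkn1a probe set gave the same picture, at 9.83 and 9.68 in mutants and 8.999 and 8.84 in wildtype. It rose by 0.84 ± 0.09 (adjusted p = 0.0417).

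Ccng1 encodes cyclin G1, which recruits a phosphatase to Mdm2 and is linked to arrest and to damping of p53. Its brightest probe set read 10.46 and 10.24 in mutants, against 10.23 and 10.17 in wildtype. The genotypes were parted by only 0.01, less than the spread within the mutants. The change was 0.15 ± 0.10 (adjusted p = 0.459), with an interval of -0.10 to 0.40. It was 0.04 without mutant replicate 1 and 0.26 without mutant replicate 2. The other Ccng1 probe sets disagreed with each other in size. One read 9.35 and 9.32 in mutants and 9.38 and 9.26 in wildtype, a change of 0.02 with genotypes that overlapped. The third read 9.54 and 9.45 in mutants and 9.01 and 9.19 in wildtype, a change of 0.40 ± 0.09 that did not pass (adjusted p = 0.112). Which part of the transcript each reads was not analysed here.

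Among the targets that feed back on p53 or on growth signalling, Phlda3 rose, and Mdm2 and Sesn2 did not pass. Phlda3 encodes a small pleckstrin homology protein that keeps the kinase Akt off the membrane. It read 9.87 and 10.07 in mutants, against 9.18 and 9.24 in wildtype. All of the mutant signal lay above wildtype, by 0.63 between the nearest embryos. The change was 0.76 ± 0.09 (1.69-fold, adjusted p = 0.0458), with an interval of 0.52 to 0.99.

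Mdm2, the ligase that marks p53 for destruction, read 10.38 and 10.36 in mutants and 10.40 and 10.34 in wildtype at its brightest probe set. The genotypes overlapped, and the change of -0.00 ± 0.07 had an interval of -0.18 to 0.17 (adjusted p = 0.988). A change the size of that in Cdkn1a lies outside this interval. The dimmer Mdm2 probe sets lay slightly above wildtype. One stood at 9.08 in both mutants and at 8.88 and 8.87 in wildtype, a change of 0.20 ± 0.07 (adjusted p = 0.192). The dimmest stood at 4.83 and 4.84 in mutants and at 4.57 and 4.68 in wildtype, a change of 0.21 ± 0.07 (adjusted p = 0.222). The sign of Mdm2 therefore rests on the probe set taken.

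Sesn2 encodes sestrin 2, a stress-induced inhibitor of mTORC1 that also answers to the stress factor Atf4. It read 7.30 in both mutants, against 7.39 and 7.40 in wildtype. The mutants were lower by a gap of 0.09, and the change of -0.09 ± 0.07 had an interval of -0.26 to 0.08 (adjusted p = 0.508). The second Sesn2 probe set, at 7.35 and 7.22 in mutants and 7.36 and 7.34 in wildtype, differed by -0.07 and the higher mutant fell between the wildtype embryos.

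The cell death targets were the most mixed. Pmaip1 (Noxa) and Bbc3 (Puma) encode BH3-only proteins that neutralise survival members of the Bcl2 family. Pmaip1 read 9.15 and 8.77 in mutants, against 7.94 and 7.84 in wildtype. Both mutants were higher, by a gap of 0.83, and they differed from each other more than the mutants did at any other member. The change was 1.07 ± 0.14 (adjusted p = 0.0507), with an interval of 0.71 to 1.43. Over the 13 alternative settings its adjusted p ran from 0.0135 with an intensity trend to 0.318 without wildtype replicate 1, and it passed in 6.

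Bbc3 read 8.84 and 8.88 in mutants, against 8.51 and 8.50 in wildtype. The embryos of each genotype lay close together, 0.33 apart at the nearest between genotypes. The change of 0.36 ± 0.07 (1.28-fold) did not pass (adjusted p = 0.0874).

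Trp53inp1 encodes a nuclear protein that promotes the death-inducing phosphorylation of p53 and autophagy. Its brightest probe set read 10.86 and 10.89 in mutants, against 10.35 and 10.33 in wildtype. The mutants stood 0.51 above at the nearest, and Trp53inp1 rose by 0.53 ± 0.07 (1.45-fold, adjusted p = 0.0491). The dimmer probe set did not pass, at 5.58 and 5.52 in mutants and 5.61 and 5.44 in wildtype, a change of 0.03 (adjusted p = 0.896). With the mean of both probe sets the change was 0.28 and did not pass (adjusted p = 0.0761), nor did it with robust eBayes (adjusted p = 0.0516). Its adjusted p ran from 0.00712 to 0.311 over the alternatives.

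Perp, a tetraspan membrane protein of desmosomes that p53 and its relative p63 both induce, lay below wildtype. It read 8.18 and 8.02 in mutants, against 8.61 and 8.48 in wildtype. Both mutants were lower, by a gap of 0.30. The change of -0.44 ± 0.09 had an interval of -0.68 to -0.21 and did not pass (adjusted p = 0.102). Trp63, the gene for p63, stood at 6.22 and 5.54 in mutants, against 6.85 and 6.90 in wildtype, a change of -0.99 ± 0.22 (adjusted p = 0.111). It was -0.32 as the mean of its 4 probe sets and -0.65 without mutant replicate 2. Of the 7 genes listed as surface ectoderm markers, Trp63 was the only one below wildtype. The other members read above it, with Epcam at 0.63 and Tfap2c at 0.99 past an adjusted p of 0.05 (0.0414 and 0.0458). The summed signal of the list was 1.18 to 1.19 in mutants and 0.99 to 1.01 in wildtype, relative to the wildtype mean. Krt8 and Krt18, the brightest of the list (changes of 0.26 and 0.09), weigh most in this sum, and Trp63 weighs little. Whether the listed genes read surface ectoderm alone in whole embryos was not tested, so the sum is no measure of its amount. The part of surface ectoderm in the Perp value was not tested.

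**Figure D2:**
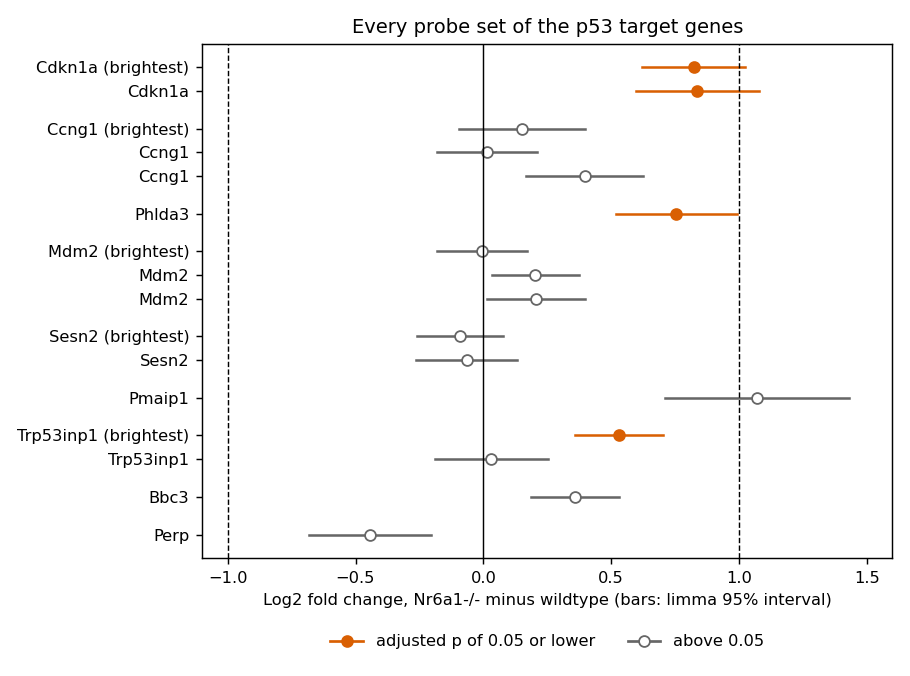
Change between genotypes (horizontal axis, log2 scale, mutant minus wildtype) of all 16 probe sets of the 9 genes (rows), with limma's 95% interval as bars; filled orange points had an adjusted p of 0.05 or lower and dashed lines mark a 2-fold change. Both Cdkn1a probe sets, Phlda3 and the brighter Trp53inp1 probe set passed, and the probe sets of Ccng1, Mdm2 and Trp53inp1 differed in size within a gene.

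The medians of the cell death and cell cycle arrest targets differed by -0.04 (death minus arrest) at the brightest probe sets. The difference moved with the choice of probe set. The median change was 0.44 for the 4 measured death targets (-0.44 to 1.07) and 0.49 for the 2 arrest targets (0.15 and 0.82). The difference of -0.04 is one of means over 2 embryos per genotype. Its spread for a single mutant against a single wildtype embryo was 0.06 (SD). That is wider than the spread of such means, so the difference is not judged against it. Each class held 1 gene that rose, Trp53inp1 for death and Cdkn1a for arrest, and the range of the death targets enclosed that of the arrest targets. The feedback and growth signalling class had a median of -0.00, with Phlda3 the only gene of it above wildtype. With 2 genes in one class no test was made, and the difference was -0.19 with the mean of probe sets, -0.16 at lowest-p probe sets and 0.03 when probe sets of shared sequence were left out.

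Among all genes ranked by change, Pmaip1 stood at rank 95 of 18193, Cdkn1a at 197 and Phlda3 at 249. Trp53inp1 was at rank 529, above 97.1% of genes, and Bbc3 at 1103, above 93.9%. Mdm2 was near the middle, above 51.6% of genes. Perp lay near the lower end, above 2.42% of genes. Ccng1 stood above 81.5% of genes and Sesn2 above 30.5%.

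**Figure D3:**
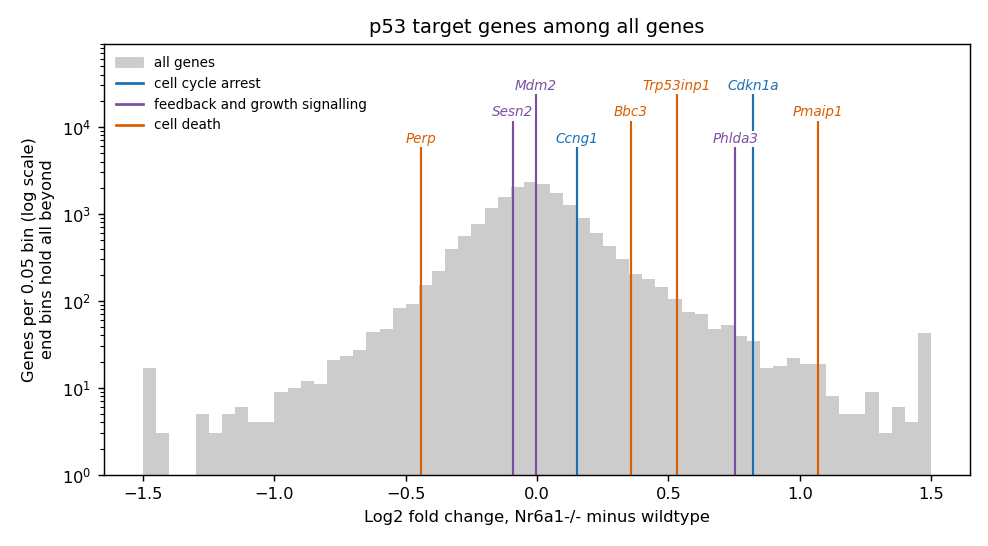
Number of genes (vertical axis, log scale) by change between genotypes (horizontal axis, log2 scale, mutant minus wildtype, bins of 0.05, the end bins holding all genes beyond), for all 18193 genes in grey, with the 9 measured p53 target genes as coloured lines by role. Pmaip1, Cdkn1a and Phlda3 lie at ranks 95, 197 and 249 from the top and Perp lies near the lower end.

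Other p53 targets had a median close to that of all genes, though a larger share of them was higher at an unadjusted p. Mutants exceeded wildtype in 15 of the 24 measured (62.5%, against 47.2% of all genes), with a median of 0.04. In limma 1 rose (4.17%, against 1.02% of all genes) and 0 fell. At an unadjusted p under 0.05, 7 were higher (29.2%) and 1 lower (4.17%), where all genes gave 11.9% each way. The one that rose was Btg2, an antiproliferative cofactor of mRNA deadenylation, at 9.84 in both mutants, against 9.15 and 9.26 in wildtype (0.64 ± 0.07, adjusted p = 0.0438). As the mean of its 2 probe sets the change in Btg2 was 0.43. Gadd45a, a growth arrest gene induced by DNA damage, stood at 0.44 (adjusted p = 0.0742), and Dcxr, a carbonyl reductase, at 0.39 (adjusted p = 0.111). Genes of the p53 family and its regulators were balanced around 0, with 9 above and 9 below wildtype of 18 measured and a median of -0.01. None of them passed in limma (0 of 18, with 0 higher and 4 lower at an unadjusted p under 0.05, against 11.9% of all genes each way). The coactivator Crebbp stood at -0.32 (adjusted p = 0.112) and the DNA damage kinase Atr at -0.32 (adjusted p = 0.142), and both at -0.09 as the mean of their probe sets. Trp53 itself is not analysed here.

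Some relatives of the members that are not among the listed p53 targets also lay above wildtype. Of 12 CDK inhibitors and family relatives, 8 lay above wildtype (66.7%, against 47.2% of all genes) with a median of 0.31. Cdkn1c, an imprinted CDK inhibitor of the same family as p21, stood at 12.26 and 12.38 in mutants, against 11.56 and 11.65 in wildtype, and rose by 0.71 ± 0.08 (adjusted p = 0.0430). Ccng2, the relative of Ccng1, read 10.12 and 10.06 in mutants, against 9.17 and 9.47 in wildtype, a change of 0.77 ± 0.12 that did not pass (adjusted p = 0.0623). Gadd45g stood at 0.54 (adjusted p = 0.0842). In this list 1 gene rose (8.33%, against 1.02% of all genes) and 0 fell in limma (0.374% of all genes did). At an unadjusted p under 0.05, 7 of 12 were higher and 1 lower (11.9% of all genes each way).

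Of 19 other Bcl2 family and caspase genes, 9 lay above and 10 below wildtype (47.2% and 52.8% of all genes did), with a median of -0.01. In limma 1 of the 19 rose (5.26%, against 1.02% of all genes). It was Casp6, an executioner caspase, with 11.07 and 11.01 in mutants, against 10.18 and 10.29 in wildtype (0.80 ± 0.08, adjusted p = 0.0333). As the mean of its 2 probe sets the change in Casp6 was 0.55. Cycs, which encodes the cytochrome c that leaves mitochondria in apoptosis, stood at -0.41 (adjusted p = 0.0811), and the survival gene Bcl2 at -0.40 (adjusted p = 0.110). None fell in limma (0 of 19, against 0.374% of all genes). At an unadjusted p under 0.05, 2 were higher and 3 lower (11.9% of all genes each way). Cell cycle genes that p21 lowers through the DREAM repressor complex lay below wildtype in 13 of 17 cases (52.8% of all genes did), with a median of -0.09 and a range of -0.25 to 0.18. None of these passed in limma (0 of 17, with 1 higher and 2 lower at an unadjusted p under 0.05, near the 11.9% of all genes each way). Those with the smallest p were Ccne2 at -0.25 (adjusted p = 0.224), Ccnb2 at 0.18 (adjusted p = 0.230) and Top2a at -0.17 (adjusted p = 0.246). Ccne2 stood at -0.16 without mutant replicate 2, and Top2a at -0.02 as the mean of its probe sets and at 0.20 without shared sequence.

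The integrated stress response shares Sesn2, and in some cells Pmaip1 and Bbc3, with p53. Of its 14 genes 9 were above wildtype (64.3%, against 47.2% of all genes, median 0.13). Ddit4, an inhibitor of mTORC1 that both p53 and hypoxia can induce, stood at 12.50 in both mutants, against 9.97 and 10.46 in wildtype, and rose by 2.29 ± 0.17 (adjusted p = 0.0174). Trib3 stood at 1.26 ± 0.26 (adjusted p = 0.0981), Chac1 at 0.99 ± 0.22 (adjusted p = 0.110) and Asns at 0.50 ± 0.09 (adjusted p = 0.0796). Without mutant replicate 1 Chac1 stood at 0.66, and without mutant replicate 2 at 1.33. Ddit4 alone passed (1 of 14, 7.14%, where 1.02% of all genes were higher and 0.374% lower). At an unadjusted p under 0.05, 6 of 14 were higher and 1 lower (11.9% of all genes each way). The part of the integrated stress response in the p53 target values was not tested.

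**Figure D4:**
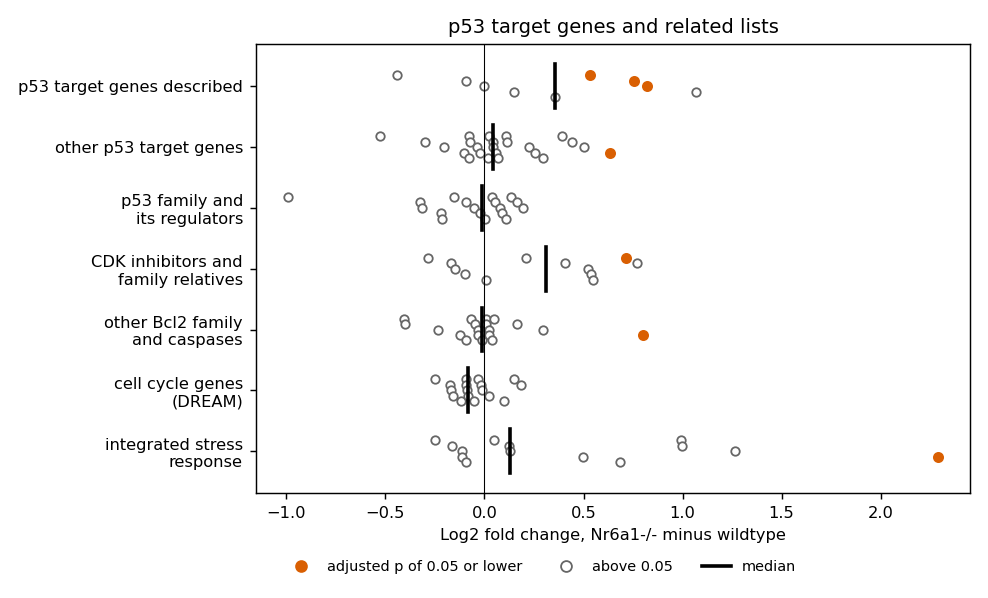
Change of each gene (points) between genotypes (horizontal axis, log2 scale, mutant minus wildtype) in the p53 target genes described and in 6 related lists (rows), with list medians as black bars; filled orange points had an adjusted p of 0.05 or lower. The p53 target genes described have a median of 0.36 and other p53 targets one of 0.04, while Ddit4 at 2.29 is the highest point.

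Of the heart, red cell, yolk sac, macrophage and trophoblast markers, 0 passed an adjusted p of 0.05 in limma. At an unadjusted p under 0.05, 3 heart, 2 red cell and 1 trophoblast markers were higher, and 2 yolk sac and 1 macrophage markers lower. Of all genes 11.9% were higher and 11.9% lower at that p, and without overlap 26.2% lay above and 30.4% below wildtype. By their means all 6 heart muscle markers lay above wildtype, 5 without overlap and Myh7 at 0.01 with overlap, with a summed signal of 1.23 to 1.28 in mutants and 0.93 to 1.07 in wildtype relative to the wildtype mean. All 5 primitive red cell markers did too, 4 without overlap (1.06 to 1.12 in mutants and 0.98 to 1.02 in wildtype), led by the haem enzyme gene Alas2 at 0.98 (adjusted p = 0.0848). The globin genes, the brightest of that list (changes of 0.07 to 0.15), weigh most in its summed signal, and Alas2 weighs little. All 5 yolk sac endoderm markers lay below wildtype, 3 without overlap, while the summed signals overlapped (0.83 to 0.96 in mutants and 0.95 to 1.05 in wildtype), led by Hnf4a at -0.47 (adjusted p = 0.0824). Macrophage markers, 2 of 6 above, summed to 0.94 to 0.97 in mutants and 0.98 to 1.02 in wildtype. Trophoblast markers, 2 of 3 above, summed to 1.07 to 1.25 in mutants and 0.98 to 1.02 in wildtype. Hand1, the brightest of the 3 (means of 9.12 in mutants and 8.86 in wildtype), weighs most, so the sum follows Hand1. Hand1 was also the listed trophoblast marker that was higher at an unadjusted p under 0.05 (change of 0.25). Whether Hand1 reads trophoblast in whole embryos was not tested, so the sum is no measure of trophoblast. The other members were dim and their genotypes overlapped. Tpbpa read 4.01 and 4.32 in mutants and 3.98 and 4.14 in wildtype. Prl8a2 read 5.02 and 5.17 in mutants and 5.73 and 4.97 in wildtype. RMA signals have no 0, so no marker is absent by its value. The part of developmental delay, tissue makeup, embryo sex and ribosomal RNA signal in the p53 target values was not tested.

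Every call of a member rests on a fit to all 4 embryos. With any 1 array left out, a genotype holds 1 embryo. Such a fit called almost no gene on the array, members or not, so only sizes of change are given here. Without wildtype replicate 1, the female, Cdkn1a stood at 0.80, Phlda3 at 0.72 and Trp53inp1 at 0.54, and over the 4 arrays left out in turn they ran from 0.76 to 0.89, from 0.66 to 0.85 and from 0.52 to 0.55. For 2 embryos against 2 the smallest two-sided p of an exact permutation test is 0.333.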

How the data were processed

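Total RNA of each whole embryo was amplified, labelled and hybridised to Affymetrix mouse whole-genome arrays. The authors deposited log2 signals made with RMA, which subtracts background, equalises array distributions and reduces each probe set to 1 value. For its version and genome build, the entry is: not given in the sources used here. Such values hide shifts of most transcripts and understate changes of dim ones. Number of arrays limits precision.

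After 64 control probe sets were left out, 45037 were fitted with lmFit and eBayes (limma 3.58.1, R 4.3.3) by genotype, with Benjamini-Hochberg adjustment over all. The annotation gave 34945 probe sets a single symbol, 932 several and 9160 none. Entrez identifiers matched RefSeq (GRCm38.p6) for 99.4%, and 0 symbols changed. A gene was read at its probe set of highest mean. The p-values measure the spread between these embryos, with a prior SD of 0.0849.

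Named were all member probe sets, Nr6a1 and, per list, genes called at 2-fold and 3 more with the smallest p. Of the markers within this rule only some are named. Krt8, Krt18 and Myh7 fall outside it and were named with their values known. Members and lists were chosen with earlier results of these data known. The 13 alternatives were the replicate block, each array left out, quantile normalisation once more, a filter on dim probe sets, intensity trend, median centring, robust eBayes, mean or lowest-p probe set, and no shared sequence. The fit was tested on simulated data.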

Additional observations from a re-analysis of the deposited data

How the results depend on the processing

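Of the 9 measured members, 8 kept their direction in all 13 alternatives. The exception was Mdm2, at -0.00, which read 0.14 as the mean of its probe sets, 0.21 without shared sequence, 0.018 with repeated quantile normalisation, 0.20 at its lowest-p probe set and -0.034 to 0.026 with 1 array left out. Top2a read 0.20 without shared sequence. The number of members past an adjusted p of 0.05, 3 in the main comparison, was 6 with the filter on dim probe sets and 6 with an intensity trend, Bbc3 and Pmaip1 (higher) and Perp (lower) joining, and these settings also raised the number of genes higher to 758 (of 11639 kept) and 845, against 186, and lower to 641 and 756, against 68. It was 2 to 4 under the other settings with all arrays and no block. It was 0 with any array left out (0 to 0) and 0 with the replicate block (limma, 5 higher and 1 lower at an unadjusted p under 0.05), which leaves 1 residual degree of freedom and called 0 of all genes. The pairing has no other basis than the shared number (correlation of deviations 0.06). Pmaip1 was the 1 member called at 2-fold with the filter, the trend, the mean of probe sets, median centring, repeated quantile normalisation and no shared sequence, against 0. The median change of 0.36 was 0.28 with the mean of probe sets, 0.34 with median centring, 0.40 at lowest-p probe sets and 0.34 to 0.38 with 1 array left out. Death minus arrest, -0.04, was -0.19 with the mean of probe sets, -0.16 at lowest-p probe sets and 0.026 without shared sequence. The cause was not tested. The number of embryos limits every value.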
